A study of Homo sapiens with 12 samples.

Results

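The genes described here are the cadherins, protocadherins and desmosomal cadherins of 2 human pancreatic ductal adenocarcinoma cell lines and of the cisplatin-resistant derivative of each. The members were chosen by name. They are the genes whose symbol begins with CDH, PCDH, DSG or DSC followed by a digit, and whose probe set on the array carries that single symbol. This rule gave 40 of the 18417 genes tested. Of these, 39 encode proteins, and CDH4-AS2 is an antisense RNA gene that shares the letters. No member had more than 1 probe set, and 2 probe sets of the family that carry several symbols were left out.

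Total RNA was taken from adherent cultures that had not reached confluence, and was measured on 12 Affymetrix arrays, 3 for each of 4 groups. AsPC1 and BxPC3 are established parental lines grown in RPMI 1640 medium with serum and without drug. AsPC1-R was maintained in the same medium with 1.67 µM cisplatin and BxPC3-R with 0.60 µM, and both were drug-free from their last passage until harvest. Cisplatin is a platinum compound that crosslinks DNA. All 4 groups were therefore free of drug when RNA was taken. Each parental line has 1 derivative, so a change that goes with resistance cannot be told apart from one particular to that derivative. Nothing in the labels says that the 3 replicates of a group were separate cultures. The p-values then reflect the spread among these replicates alone, which may be technical.

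Cadherins are membrane proteins that bind their like on the neighbouring cell through calcium-dependent repeats outside the cell. The classical cadherins anchor adherens junctions to actin through β-catenin, plakoglobin and α-catenin. Desmogleins and desmocollins build desmosomes, which tie keratin filaments together across cells through plakoglobin, plakophilins and desmoplakin. Protocadherins carry more repeats, lack the catenin-binding tail and are best known from the nervous system. In carcinomas, loss of the epithelial E-cadherin (CDH1) and gain of the mesenchymal N-cadherin (CDH2) are widely used signs of epithelial-mesenchymal transition.

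The 7 desmosomal cadherin genes lie side by side on chromosome 18, in the order DSC3, DSC2, DSC1, DSG1, DSG4, DSG3 and DSG2 among the family's genes, with CDH2 next before DSC3. The 250 bases before the start of 4 of them are shown because neighbouring genes of this cluster differed in their changes, as described further on. The sequences are RefSeq's, on GRCh38.p14, 5′ to 3′ on the strand of the gene. They lie at chr18:31042743-31042992 on the minus strand for DSC3, chr18:31102422-31102671 on the minus strand for DSC2, chr18:31447491-31447740 on the plus strand for DSG3 and chr18:31497927-31498176 on the plus strand for DSG2. Capitals mark CAGGTG on either strand, the letters of an E-box that repressors of the SNAI and ZEB families can bind.
DSC3 promoter: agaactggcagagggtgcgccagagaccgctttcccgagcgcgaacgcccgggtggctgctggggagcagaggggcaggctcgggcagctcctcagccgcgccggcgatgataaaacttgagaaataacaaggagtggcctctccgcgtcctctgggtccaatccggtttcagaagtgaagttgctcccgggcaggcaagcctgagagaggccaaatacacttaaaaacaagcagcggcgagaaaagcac
DSC2 promoter: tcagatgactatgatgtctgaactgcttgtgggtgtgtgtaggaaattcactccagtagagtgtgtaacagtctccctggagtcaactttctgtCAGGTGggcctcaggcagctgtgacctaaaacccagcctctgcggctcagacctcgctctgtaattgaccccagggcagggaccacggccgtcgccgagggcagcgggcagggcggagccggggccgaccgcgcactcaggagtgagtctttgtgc
DSG3 promoter: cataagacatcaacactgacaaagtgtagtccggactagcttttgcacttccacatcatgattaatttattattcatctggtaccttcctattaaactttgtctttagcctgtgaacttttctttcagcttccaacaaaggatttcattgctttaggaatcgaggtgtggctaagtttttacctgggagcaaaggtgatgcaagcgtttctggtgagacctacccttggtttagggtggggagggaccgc
DSG2 promoter: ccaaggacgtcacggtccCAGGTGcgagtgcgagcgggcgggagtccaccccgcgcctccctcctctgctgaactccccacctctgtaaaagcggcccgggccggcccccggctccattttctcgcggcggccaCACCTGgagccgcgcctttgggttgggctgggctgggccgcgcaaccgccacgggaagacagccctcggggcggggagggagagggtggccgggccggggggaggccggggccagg

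In these windows DSG2 held the letters at 2 places, which begin 232 and 116 bases before its start, and DSC2 held them once, 156 bases before its start. The window of DSG1, not shown, held it once, 245 bases before its start. The windows of DSC1, DSC3, DSG3 and CDH2 held none. No window was available for DSG4, nor for CDH1, CDH3, CDH5, CDH6, CDH11 and PCDH20, so the search does not cover them. Over all 35116 windows of 250 bases in the table, 17.5% held CAGGTG, and 6 of the 39 windows of the 27 family genes matched did so. The AP-1 motif TGANTCA, searched on both strands, was in 3 of those 39 windows and in 6.57% of all windows. It was in none of the 4 shown. A match is a description of letters, not of binding.

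Levels are log2 values per probe set, and levels of different genes are not compared. A gene was taken as reaching the median when its highest group mean was at least 6.554, the median of all values. Of the 40 members, 16 reached it and 24 did not. CDH24 lay just inside, with a highest group mean of 6.86, and CDH26 just outside, with 6.46. Background was not measured. As a guide to what an absent transcript may read, SMAD4, which is deleted in BxPC3, read 4.70 there on average, against 9.90 in AsPC1. CDKN2A, the other gene read as deleted there, was lower in BxPC3 than in AsPC1 by only 1.22 on the log2 scale. The mean of these 2 genes was 5.23 to 5.59 over the BxPC3 arrays. Of the 2, 1 was called lower in BxPC3-R than in BxPC3, with a change of −0.47, so such a reading can pass the test. Changes to, from or within such low levels are uncertain in size.

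All 7 measured epithelial markers, among them EPCAM and KRT19, reached the median in every group. Medians over all probe sets were 6.48 to 6.65 per array, and precision is limited by having 3 arrays per group. The second BxPC3 array stood apart. Among the 50 genes with the largest difference between AsPC1 and BxPC3-R, all 50 read higher on it than on the other BxPC3 arrays, with a median excess of 0.83. Counts of members called against BxPC3 are therefore given with and without that array, as are the members whose calls changed. These checks of arrays were chosen after values had been seen.

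**Figure D1:**
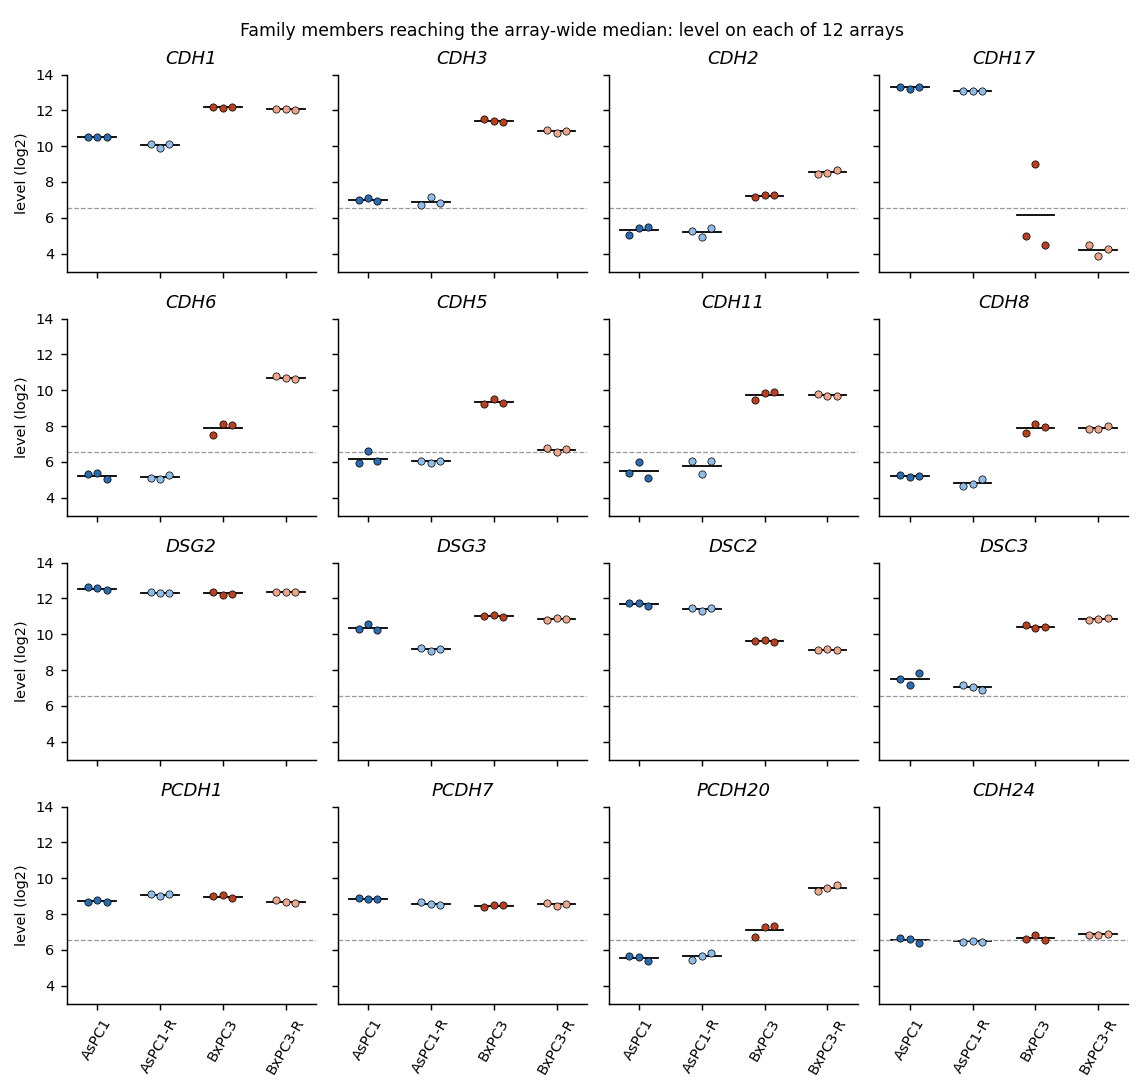
Log2 level (vertical axis) of the 16 members reaching the median on each of the 12 arrays, in 1 panel per gene. Points are arrays, short bars are group means, and the dashed line is the median of all values. CDH17 reads above 13 on all 6 arrays of AsPC1 and AsPC1-R, and its 3 BxPC3 points are spread between 4.47 and 9.0.

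The first question is what distinguishes the parental lines. AsPC1 carried far more CDH17 and more DSC2. Of the 16 members reaching the median, BxPC3 carried more of 11: CDH1, CDH2, CDH3, CDH5, CDH6, CDH8, CDH11, DSC3, DSG3, PCDH1 and PCDH20. In all, 28 of the 40 members differed at an adjusted p under 0.05 (limma, adjusted over all 18417 genes), 14 in each direction, and 50.6% of all genes did so, 27.7% higher and 22.9% lower in AsPC1. The arrays of the lines did not overlap for 27 members and for 54.3% of all genes. Among the 16 members reaching the median, 15 differed, 4 of them higher in AsPC1 and 11 lower, beside 60.8% of the 12328 genes reaching it. At least 2-fold differences were found for 12 of the 40 members and for 11.1% of all genes. The median difference over the family was 0.07 and over all genes 0.11.

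CDH17 encodes LI-cadherin, a seven-repeat cadherin of the intestinal epithelium that needs no catenins. It read 13.33, 13.20 and 13.31 on the AsPC1 arrays, 13.08, 13.09 and 13.11 on AsPC1-R, 4.99, 9.0 and 4.47 on BxPC3, and 4.48, 3.88 and 4.26 on BxPC3-R. Every array of the AsPC1 pair was above every array of the BxPC3 pair. The second BxPC3 array stood 4.27 above the mean of the other BxPC3 arrays, at 5.16% of the AsPC1 mean on the linear scale. The parental difference was 7.12 ± 0.79 (SE, n = 3 per group) with all arrays, and 8.55 ± 0.17 without that array (adjusted p = 3.86e-06 and 5.43e-13, limma). Between the derivatives it was 8.89 ± 0.79, an SE that also carries the spread of the BxPC3 arrays. DSC2, the other member with at least 2-fold more in AsPC1, was only 0.07 higher on the second BxPC3 array than on its fellows.

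Of 11 measured intestinal genes listed beside CDH17, 9 were higher in AsPC1 than in BxPC3 and none was lower, with a median difference of 2.88. Of all genes 27.7% were higher and 22.9% lower. Among them, GPA33, an intestinal surface antigen, was higher by 4.27 ± 0.16, and VIL1, the microvillar protein villin, by 4.54 ± 0.16. CDX2, the intestinal homeobox factor known to activate CDH17, read 8.18 in AsPC1 and 7.30 in BxPC3, a difference of 0.88 ± 0.10 (adjusted p = 7.44e-06, limma).

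CDH1, CDH2 and CDH11 were all higher in BxPC3 than in AsPC1. CDH1 read 10.53, 10.50 and 10.49 on the AsPC1 arrays and 12.19, 12.14 and 12.20 on the BxPC3 arrays. The groups did not overlap, and CDH1 was 3.19-fold lower in AsPC1 (log2 difference −1.67 ± 0.08, adjusted p = 4.76e-10, limma). CDH11, or OB-cadherin, known from osteoblasts and fibroblasts, read 5.36, 5.97 and 5.10 in AsPC1 against 9.47, 9.84 and 9.90 in BxPC3, a difference of −4.27 ± 0.22. Its level in AsPC1 lay below the median of all values, as did those of CDH2, CDH5, CDH6, CDH8 and PCDH20. ZEB1, a repressor of CDH1, went the other way from CDH1, at 9.77 in AsPC1 and 5.88 in BxPC3. SNAI2, another such repressor, was lower in AsPC1 than in BxPC3 by 0.65 on the log2 scale. Of the 10 fibroblast markers measured, LUM (6.63) and PDGFRB (0.36) were higher in AsPC1 and PDGFRA (−1.29) was lower. The mean of that list ranged from 6.05 to 6.22 over the AsPC1 arrays and from 5.43 to 5.63 over the BxPC3 arrays, and its part in these differences was not tested.

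P-cadherin (CDH3), a cadherin of basal epithelial layers, read 7.02, 7.13 and 6.92 in AsPC1 and 11.49, 11.39 and 11.37 in BxPC3. This is a 21.1-fold lower level in AsPC1 with no overlap of arrays (log2 difference −4.40 ± 0.11). The desmosomal cadherins split: 5 of the 7 were higher in AsPC1 (DSG2, DSC2, DSG1, DSG4 and DSC1) and DSC3 and DSG3 were lower. DSC2, the widespread desmocollin, was higher by 2.07 ± 0.08, while DSC3 was lower by 2.93 ± 0.14 on the log2 scale. DSC3 and DSG3 are the desmosomal cadherins of basal stratified epithelium. Of 14 measured genes of stratified epithelium 9 were lower in AsPC1 and none was higher, beside 22.9% and 27.7% of all genes. DSG1, DSG4 and DSC1 were below the median in every group, and DSC1 lost its call without the second BxPC3 array (adjusted p = 0.0686, limma).

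Of the 24 members below the median, 13 differed between the parental lines, 10 of them higher in AsPC1, beside 29.9% of the 6089 genes below it. The second AsPC1 array was the highest of the AsPC1 arrays for 18 of these 24, and for 62.1% of those genes. Without the second AsPC1 array 22 family members differed, 8 higher and 14 lower, beside 44.5% of all genes. Without the second BxPC3 array 22 differed, 9 higher and 13 lower, beside 42% of all genes. The differences were then −1.69 for CDH1, −4.41 for CDH3, 2.10 for DSC2 and −2.97 for DSC3. PCDH1 lost its call without the first AsPC1 array (adjusted p = 0.0542) and without the second BxPC3 array (adjusted p = 0.0728, limma). The other calls lost without the second BxPC3 array were of members below the median. They were CDH15 (adjusted p = 0.0842), CDH16 (0.162), CDH23 (0.115), DSC1 (0.0686) and PCDH8 (0.0875, limma).

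The second question is what changed in AsPC1-R. Of the 7 desmosomal cadherins 5 fell, as did CDH1, and PCDH1 was the 1 member that rose. Of those 5 only DSG3 both reached the median and kept its call under every alternative setting of the processing. DSG3 fell 2.30-fold, the 1 change in the family of at least 2-fold, which 2.33% of all genes had. In all, 9 of the 40 members changed, 1 up and 8 down, against 20.3% of all genes, so the share of members called was near that of all genes. Among the 16 members reaching the median 8 changed, 1 up and 7 down, beside 27.4% of the genes reaching it. Of all genes 11.6% rose and 8.64% fell. The median change was −0.15 over the family and −0.05 over all genes, and the arrays of the groups did not overlap for 13 members and for 33.4% of all genes. Fewer cells with a transcript and less of it per cell cannot be told apart in these bulk samples.

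**Figure D2:**
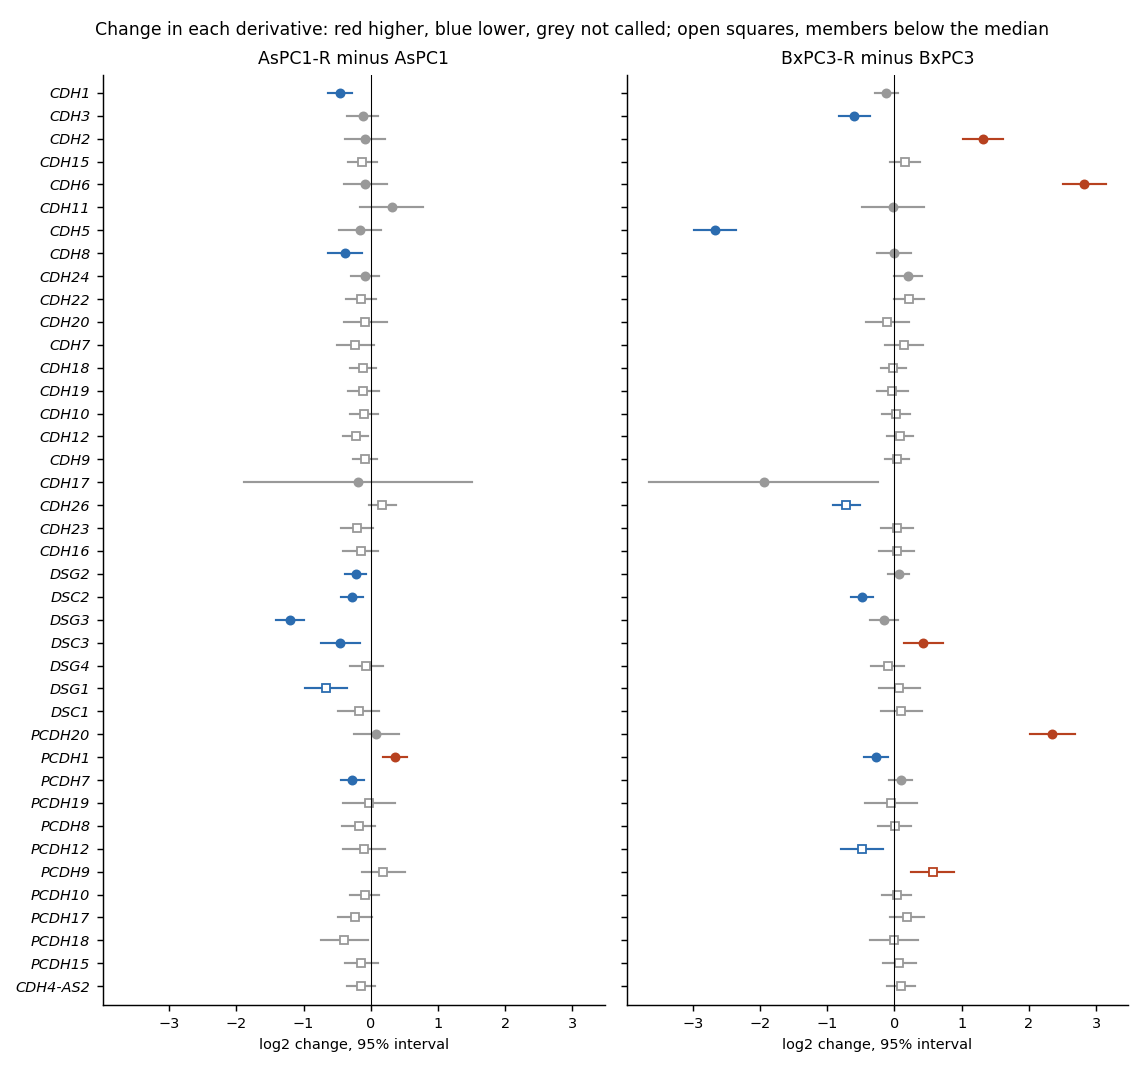
Log2 change with its 95% interval (horizontal axis) for all 40 members, in AsPC1-R against AsPC1 on the left and in BxPC3-R against BxPC3 on the right. Red members rose, blue members fell and grey members did not pass the test, and open squares mark members below the median. On the left most symbols lie close to 0 and DSG3 is farthest from it, and on the right CDH6, PCDH20 and CDH2 lie far above 0 and CDH5 far below.

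DSG3, the desmoglein of basal keratinocytes and an autoantigen of pemphigus, read 10.27, 10.58 and 10.25 in AsPC1 and 9.24, 9.08 and 9.18 in AsPC1-R. Every AsPC1-R array was well below every AsPC1 array. The log2 change was −1.20 ± 0.10 (adjusted p = 7.69e-07, limma). In BxPC3 it read 11.00, 11.07 and 10.94, and in BxPC3-R 10.80, 10.91 and 10.82. There the change was −0.16 ± 0.10 and did not pass (adjusted p = 0.313), and the changes in the lines differed by −1.04 ± 0.14 (adjusted p = 6.36e-05, limma). The fall of DSG3 was thus larger in AsPC1-R.

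E-cadherin, the principal adhesion protein of epithelial adherens junctions, read 10.12, 9.89 and 10.14 in AsPC1-R, all below the lowest AsPC1 array. The fall of CDH1 was 1.37-fold (log2 change −0.46 ± 0.08, adjusted p = 0.00108, limma). BxPC3-R read 12.09, 12.05 and 12.02, each a little below every BxPC3 array, with a change of −0.12 ± 0.08 that did not pass (adjusted p = 0.362). The difference between the lines, −0.33 ± 0.11, passed narrowly (adjusted p = 0.0465) and was lost when any 1 of 11 of the 12 arrays was left out, with adjusted p between 0.0508 and 0.107. It kept its call only without the third AsPC1-R array.

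Of the other desmosomal cadherins, DSC2, DSC3, DSG1 and DSG2 also fell in AsPC1-R. DSC2 read 11.73, 11.73 and 11.60 in AsPC1 and 11.48, 11.32 and 11.44 in AsPC1-R, without overlap, a change of −0.28 ± 0.08. DSC3 read 7.51, 7.16 and 7.82 in AsPC1 and 7.16, 7.07 and 6.90 in AsPC1-R, where the lowest AsPC1 array and the highest AsPC1-R array nearly met, a change of −0.45 ± 0.14. DSG2, the desmoglein of simple epithelia, read 12.62, 12.57 and 12.46 against 12.33, 12.31 and 12.33, a change of −0.23 ± 0.07. Adjusted p was 0.0204 for DSC2, 0.0291 for DSC3 and 0.0477 for DSG2 (limma). DSG1 fell by 0.67 on the log2 scale at levels below the median (adjusted p = 0.0041), and DSG4 and DSC1 did not pass. Of the 14 measured genes of stratified epithelium, 1 rose in AsPC1-R and none fell, beside 11.6% and 8.64% of all genes.

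PCDH1, a protocadherin of airway and other epithelia, read 8.68, 8.79 and 8.69 in AsPC1 and 9.11, 9.01 and 9.13 in AsPC1-R. It rose by 0.37 ± 0.08 without overlap (adjusted p = 0.00612, limma). PCDH7, which read 8.89, 8.85 and 8.83 against 8.68, 8.56 and 8.51, fell by 0.27 on the log2 scale (adjusted p = 0.0235). CDH8, best known from the brain, read 5.24, 5.16 and 5.22 against 4.67, 4.77 and 5.01, a fall at levels below the median (adjusted p = 0.0363). CDH2 and CDH3 did not pass. CDH2 read 5.03, 5.44 and 5.47 in AsPC1 and 5.28, 4.95 and 5.44 in AsPC1-R, and CDH3 6.71, 7.16 and 6.82 in AsPC1-R, overlapping AsPC1 in both cases.

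Of the 7 measured epithelial markers, 2 fell in AsPC1-R beside CDH1 and the desmosomal cadherins, CLDN7 with a change of −0.68 ± 0.09 and KRT18 with −0.51 ± 0.12, and their part in the result was not tested. CDH1, DSG1, DSG3 and PCDH1 kept their calls under every setting tried. The calls of DSC2, DSC3, DSG2, PCDH7 and CDH8 each ended when any of 3 to 10 single arrays was left out. Without the first AsPC1 array 4 members were left, beside 16.9% of all genes (adjusted p of 0.0638 for DSC2, 0.0728 for DSC3, 0.0677 for PCDH7 and 0.0949 for CDH8, limma). Without the second AsPC1-R array 4 were left, beside 15.6% of all genes (adjusted p of 0.0873, 0.0681, 0.0719 and 0.109 in the same order, limma). With arrays centred on their medians, which moved the median change over all genes to −0.01, 5 members were called, 1 up and 4 down. Of all genes 19.1% were called in that fit. The calls of DSC3 (adjusted p = 0.0681), DSG2 (0.103), CDH8 (0.0742) and PCDH7 (0.0723, limma) were then lost.

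Markers of other cell types were read in AsPC1-R too. Of 10 fibroblast markers 1 fell, LUM, with a change of −1.03 ± 0.22, and the other 9 also had a negative change. The mean of that list ranged from 6.05 to 6.22 over the AsPC1 arrays and from 5.93 to 5.97 over the AsPC1-R arrays. Of 10 endothelial markers PECAM1 rose by 0.66 ± 0.13, of 10 leukocyte markers CD68 rose by 0.72 ± 0.09 and ITGAM by 0.43 ± 0.14, and of 7 neural and glial markers MAP2 rose by 1.45 ± 0.16. The means of the endothelial list were 5.5 to 5.76 over the AsPC1 arrays and 5.56 to 5.72 over AsPC1-R, of the leukocyte list 5.64 to 5.84 and 5.75 to 5.87, and of the neural and glial list 5.48 to 5.79 and 5.69 to 5.81. The part of these markers in the changes of the cadherins was not tested.

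Genes of the junctional plaque inside the cell were read as well. Of 11 measured desmosomal plaque genes, 3 fell and 1 rose in AsPC1-R. These were 36.4% of the list, beside 20.3% of all genes and 27.4% of those reaching the median. DSP, which encodes desmoplakin and links the plaque to keratin, fell by 0.64 on the log2 scale from 11.90 to 11.26 (adjusted p = 9.98e-05, limma). The plakophilin genes PKP2 and PKP3 each fell by 0.34, and JUP, or plakoglobin, rose by 0.38 ± 0.08. In BxPC3-R these genes took other courses: JUP fell by 0.45, PKP2 rose by 0.26 ± 0.08 and DSP changed by −0.03 ± 0.09. The difference between the lines passed for JUP (0.83 ± 0.11, adjusted p = 8.31e-05), for DSP (−0.62 ± 0.12, adjusted p = 0.00175) and for PKP2 (−0.59 ± 0.12, adjusted p = 0.00152, limma).

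Among 18 measured catenin and adherens plaque genes, of which JUP is also one, 4 rose and 3 fell in AsPC1-R. The share called was 38.9%, beside 20.3% of all genes. NECTIN3, an immunoglobulin-like adhesion protein of adherens junctions, rose by 2.17 ± 0.10, from 7.96 to 10.13, and AJUBA, a LIM-domain protein that binds α-catenin, rose by 0.80 ± 0.11. NECTIN4 and LIMA1 fell. The β-catenin gene CTNNB1 read 11.25 in AsPC1 and 11.26 in AsPC1-R.

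Of 15 measured repressors of CDH1 and their partners, 1 rose and 3 fell in AsPC1-R. That is 26.7%, beside 20.3% of all genes and 27.4% of those reaching the median. SNAI2 rose by 0.33 ± 0.09 (adjusted p = 0.0161), and EZH2, the Polycomb methyltransferase, fell by 0.65 on the log2 scale. ZEB1 read 10.18 in AsPC1-R, a change of 0.40 ± 0.16 that did not pass (adjusted p = 0.0987, limma), and SNAI1 and ZEB2 were below the median in every group. Of 13 measured epithelial factors, 3 fell, with changes of −0.64 for OVOL1, −0.54 for ELF3 and −0.42 for KLF5, and KLF4 rose by 0.35 ± 0.07. The share of these factors called was 30.8%. Of 17 measured genes for shedding and turnover of cadherins, 4 rose and 5 fell, 52.9% of that list. ADAM17, a sheddase, rose by 0.73 ± 0.08, and MMP7, a metalloproteinase, fell by 0.54 on the log2 scale.

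CDH17 in AsPC1-R lay below every AsPC1 array, but the change of −0.19 ± 0.79 did not pass (adjusted p = 0.895, limma, 95% interval −1.89 to 1.51). That SE and interval use the spread of all 4 groups and are not the spread of the AsPC1 pair. The SD of CDH17 was 2.48 in BxPC3, 0.069 in AsPC1 and 0.014 in AsPC1-R. Without the second BxPC3 array the SE was 0.15 and the change did not pass either (adjusted p = 0.419). Of the 11 intestinal genes, 3 fell in AsPC1-R and none rose, 27.3% beside 20.3% of all genes. The changes were −2.16 for GPA33, −1.64 for MYO1A, a brush border myosin, and −0.91 for VIL1, while CDX2 changed by −0.25 ± 0.10 (adjusted p = 0.119, limma).

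**Figure D3:**
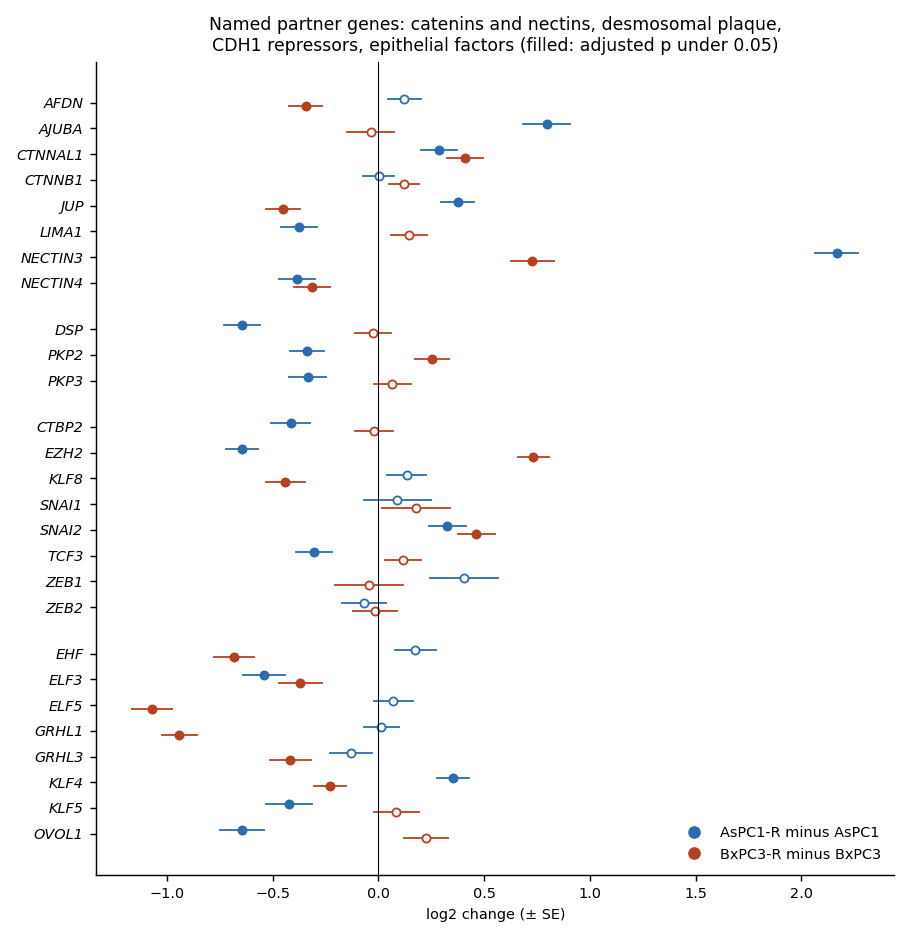
Log2 change ± SE (horizontal axis) in AsPC1-R, blue, and BxPC3-R, red, for the named genes of 4 groups from top to bottom: catenins and nectins, desmosomal plaque, CDH1 repressors, and epithelial factors. Filled circles passed an adjusted p of 0.05. NECTIN3 is farthest right in AsPC1-R, and ELF5 and GRHL1 are farthest left in BxPC3-R.

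The third question is what changed in BxPC3-R. CDH6, PCDH20 and CDH2 rose and CDH5 fell, each at least 2-fold, and CDH3 and DSC2 fell by smaller amounts. In all, 11 of the 40 members changed, 5 up and 6 down, beside 20.8% of all genes. Of all genes 9.75% rose and 11% fell. Among the 16 members reaching the median 8 changed, 4 up and 4 down, beside 28% of the genes reaching it. Changes of at least 2-fold were found for 4 members and for 2.32% of all genes. The groups did not overlap for 15 members and for 38.2% of all genes. The median change was 0.03 over the family and 0.02 over all genes.

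CDH6, or K-cadherin, a type II cadherin of the embryonic kidney, read 7.48, 8.13 and 8.05 in BxPC3 and 10.80, 10.68 and 10.65 in BxPC3-R. All BxPC3-R arrays were far above all BxPC3 arrays. It rose 7.08-fold (log2 change 2.82 ± 0.15, adjusted p = 1.91e-08, limma), the highest rise among all 18417 genes in this contrast. In AsPC1 it read 5.30, 5.37 and 5.02 and in AsPC1-R 5.11, 5.06 and 5.28, a change of −0.08 ± 0.15 at levels below the median.

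PCDH20, a protocadherin without catenin-binding tail, read 6.74, 7.28 and 7.34 in BxPC3 and 9.28, 9.48 and 9.65 in BxPC3-R. The arrays were well separated, and the rise was 5.09-fold (log2 change 2.35 ± 0.16, adjusted p = 1.53e-07, limma). In AsPC1 and AsPC1-R all 6 arrays read between 5.39 and 5.83. PCDH20 and PCDH9 are neighbours among the family's genes on chromosome 13, and PCDH9 rose by 0.57 ± 0.15 at levels below the median (adjusted p = 0.0133). That call ended without the second BxPC3 array (adjusted p = 0.0623) or the second BxPC3-R array (adjusted p = 0.0717, limma).

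N-cadherin, the cadherin of neural and mesenchymal cells, read 7.15, 7.28 and 7.26 in BxPC3 and 8.43, 8.51 and 8.70 in BxPC3-R. CDH2 rose 2.49-fold (log2 change 1.31 ± 0.14, adjusted p = 1.21e-05, limma), with no overlap. CDH1 did not pass in the same contrast. The 95% interval of the CDH1 change there was −0.30 to 0.05. In AsPC1-R, where CDH1 fell, CDH2 did not pass.

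VE-cadherin (CDH5), the adhesion protein of endothelial adherens junctions, read 9.23, 9.53 and 9.27 in BxPC3 and 6.75, 6.56 and 6.70 in BxPC3-R. It fell 6.37-fold (log2 change −2.67 ± 0.15, adjusted p = 2.99e-08, limma), to levels close to the median. In AsPC1 it read 5.91, 6.60 and 6.04 and in AsPC1-R 6.05, 5.95 and 6.05, with overlap. Between the derivatives CDH5 differed by −0.65 ± 0.15, where the parental lines differed by −3.16 ± 0.15.

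Endothelial markers were read beside CDH5. Of 10 measured, 2 fell in BxPC3-R, PECAM1 with a change of −1.24 and TEK with −1.71, and the other 8 did not pass. VWF, KDR, EMCN and CD34 were below the median in every group, with means in BxPC3 of 5.28, 5.04, 3.72 and 5.37. CLDN5, an endothelial claudin, reached the median in every group, with means of 7.69 in AsPC1, 7.68 in AsPC1-R and 7.29 in both BxPC3 and BxPC3-R. In all, 3 of the 10 reached it in BxPC3 and 1 in BxPC3-R. The mean level of the 10 markers ranged from 5.83 to 5.93 over the BxPC3 arrays and from 5.54 to 5.64 over the BxPC3-R arrays. Their part in the result was not tested.

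Fibroblast markers were read beside CDH2 and CDH6. Of 10 measured, 3 rose in BxPC3-R, LUM by 1.53 ± 0.22, PDGFRA by 1.21 ± 0.13 and FAP by 0.73 ± 0.21, and none fell. COL1A1, COL1A2, COL3A1, DCN, POSTN and THY1 did not pass. The mean of the list ranged from 5.43 to 5.63 over the BxPC3 arrays and from 5.79 to 5.95 over the BxPC3-R arrays, and its part in the result was not tested. Of 10 leukocyte markers none rose in BxPC3-R and 2 fell, CD68 and CD3E. Of 7 neural and glial markers 1 rose, MAP2, and none fell.

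CDH3 read 10.88, 10.76 and 10.82 in BxPC3-R, below every BxPC3 array. The fall was 1.51-fold (log2 change −0.60 ± 0.11, adjusted p = 0.00119, limma). DSC2 read 9.62, 9.66 and 9.56 in BxPC3 and 9.12, 9.15 and 9.14 in BxPC3-R, without overlap, and fell by 0.48 on the log2 scale (adjusted p = 0.000451). CDH26, a cadherin known from inflamed epithelium, read 6.33, 6.48 and 6.59 against 5.86, 5.71 and 5.67 and fell by 0.72 (adjusted p = 8.22e-05, limma), just below the median.

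DSC3 moved the other way from DSC2, its neighbour on the chromosome. DSC3 read 10.54, 10.34 and 10.39 in BxPC3 and 10.80, 10.82 and 10.93 in BxPC3-R, a rise of 0.43 ± 0.14 without overlap (adjusted p = 0.0384, limma). PCDH1 read 8.99, 9.05 and 8.89 in BxPC3 and 8.81, 8.68 and 8.60 in BxPC3-R, and fell by 0.28 on the log2 scale (adjusted p = 0.0271). PCDH12 fell by 0.48 on that scale below the median (adjusted p = 0.029). DSG2 read 12.36, 12.22 and 12.27 in BxPC3 and 12.36, 12.35 and 12.33 in BxPC3-R, with overlap and no call.

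Without the second BxPC3 array, 8 members were called: CDH2, CDH3, CDH5, CDH6, CDH17, CDH26, DSC2 and PCDH20. Of all genes 17.4% were called in that fit, against 20.8% with all arrays. The rises were then 2.95 ± 0.15 for CDH6, 2.43 ± 0.17 for PCDH20 and 1.34 ± 0.16 for CDH2, and CDH5 changed by −2.58 ± 0.16. DSC3 (adjusted p = 0.117), PCDH1 (0.1), PCDH12 (0.0796) and PCDH9 (0.0623) lost their calls, and CDH17 gained one. With all arrays CDH17 changed by −1.95 ± 0.79 (adjusted p = 0.106), and without that array by −0.53 ± 0.17 (adjusted p = 0.0458, limma), between means of 4.73 and 4.21 that lie near the level read for SMAD4. Without the second BxPC3-R array 7 members were called, beside 16.1% of all genes. The calls of DSC3 (adjusted p = 0.0826), PCDH1 (0.086), PCDH12 (0.0669) and PCDH9 (0.0717, limma) were again lost.

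**Figure D4:**
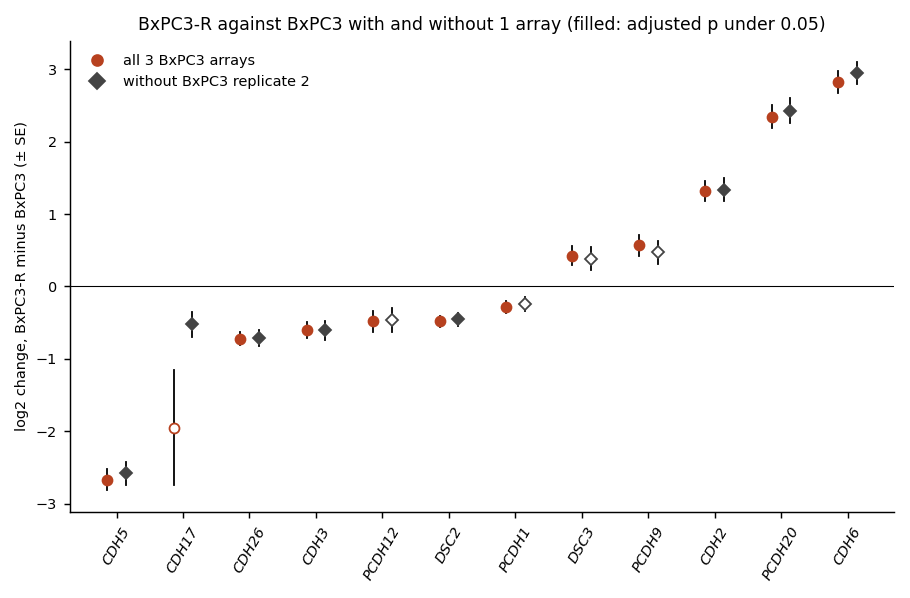
Log2 change ± SE (vertical axis) from BxPC3 to BxPC3-R with all 3 BxPC3 arrays, red circles, and without the second, grey diamonds, for each member called in either fit. Filled symbols passed an adjusted p of 0.05. CDH17 moves from −1.95 to −0.53, and the other members keep nearly the same change.

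Plaque genes and epithelial factors were read around the cadherins of BxPC3-R as well. Of 11 desmosomal plaque genes 1 rose and 1 fell, and of 18 catenin and adherens plaque genes 2 rose and 3 fell, among them NECTIN3, up by 0.73 ± 0.10, and AFDN, or afadin, with a change of −0.34. The shares called were 18.2% and 27.8%, beside 20.8% of all genes and 28% of those reaching the median. Of 13 measured epithelial factors, 7 fell and none rose, a share called of 53.8%. The changes were −1.07 for ELF5, −0.94 for GRHL1 and −0.68 for EHF. Of the 7 measured epithelial markers 3 rose, among them KRT8 by 1.12 ± 0.13, and 2 fell, CLDN7 and CLDN4. Of 15 repressors and partners of CDH1, 2 rose, EZH2 by 0.73 ± 0.07 and SNAI2 by 0.46 ± 0.09, and KLF8 fell by 0.44 on the log2 scale. The share of that list called was 20%. ZEB1 read 5.83 in BxPC3-R, below the median, and did not pass.

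In genes for shedding and turnover, 2 of 17 rose and 7 fell in BxPC3-R. That is 52.9%, beside 20.8% of all genes and 28% of those reaching the median. ADAM17 fell by 0.78 on the log2 scale, where in AsPC1-R it had risen, and the lines differed by 1.52 ± 0.11 (adjusted p = 3.09e-07, limma). TIMP3, an inhibitor of metalloproteinases, rose by 0.72 ± 0.13. Of 14 genes of stratified epithelium, 5 rose and 2 fell, a share called of 50%. KRT13 rose by 1.16 ± 0.12 and SPRR2A, of the cornified envelope, fell by 3.21 on the log2 scale.

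Among genes with cadherin repeats outside the family, the clustered protocadherins come first. Of 31 measured, 1 rose in AsPC1-R and none fell, and in BxPC3-R 1 rose and 3 fell. The shares called were 3.23% and 12.9%, beside 20.3% and 20.8% of all genes. Only 7 of the 31 reached the median. Of 17 other genes with cadherin repeats, 1 rose and 1 fell in AsPC1-R and 2 rose and 2 fell in BxPC3-R, shares of 11.8% and 23.5%. FAT4, a giant atypical cadherin, rose by 1.40 ± 0.14 in AsPC1-R, from 5.27 to 6.67. CDHR3 rose by 1.57 ± 0.13 in BxPC3-R, from 5.74 to 7.31. Both began below the median. FAT2 fell in both derivatives, with changes of −0.63 in AsPC1-R and −1.22 in BxPC3-R. The first, from 5.625 to 4.995, was at levels below the median, and the second was from 9.07 to 7.84.

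Set side by side, the derivatives had 3 called members in common, 33.3% of those called in AsPC1-R and 27.3% of those called in BxPC3-R. For all genes the 1426 called in both were 38.2% and 37.3%. DSC2 fell in both, and the difference between its changes did not pass (0.20 ± 0.11, adjusted p = 0.203, limma, 95% interval −0.03 to 0.44). DSC3 fell in AsPC1-R and rose in BxPC3-R, and PCDH1 rose in AsPC1-R and fell in BxPC3-R. Their differences between the lines were −0.88 ± 0.19 (adjusted p = 0.00361) and 0.65 ± 0.12 (adjusted p = 0.00098, limma). Without the second BxPC3 array the calls of DSC3 (adjusted p = 0.117) and PCDH1 (0.1, limma) in BxPC3-R were lost, and DSC2 was the 1 member called in both derivatives. The change differed between the lines for 12 of the 40 members, 4 with a higher change in AsPC1-R and 8 with a lower one. For all genes the share was 25.4%, of which 14.1% had a higher and 11.3% a lower change. Without the second BxPC3 array it differed for 11 members, 3 with a higher and 8 with a lower change, beside 22.7% of all genes. CDH1 (adjusted p = 0.0921) and CDH3 (0.0558) then lost the call and CDH8 gained it (0.0419, limma).

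Along the desmosomal cluster of chromosome 18, all 7 genes had a negative change in AsPC1-R, of which 5 passed. A negative change was found for 35 of the 40 members and 59.3% of all genes. Below the median it was found for 22 of 24 members, DSG1, DSG4 and DSC1 among them, and for 72.8% of genes. Of those reaching the median it was found for 13 of 16 members and 52.6% of genes. In BxPC3-R 1 of the 7 rose, DSC3, and 1 fell, DSC2. CAGGTG was in the windows of DSC2, DSG1 and DSG2 and not in those of DSC1, DSC3 and DSG3, and DSG4 had no window. CDH2, next to the cluster among the family's genes only, rose in BxPC3-R.

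**Figure D5:**
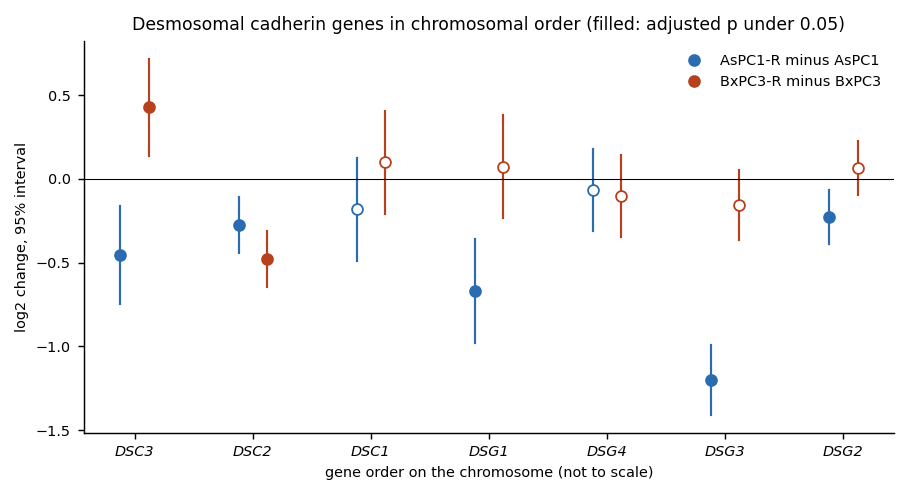
Log2 change with its 95% interval (vertical axis) of the 7 desmosomal cadherin genes in their order along chromosome 18 (horizontal axis, not to scale), in AsPC1-R, blue, and BxPC3-R, red. Filled circles passed an adjusted p of 0.05. All blue points lie below 0, lowest for DSG3 at −1.20, and red points lie on both sides of 0.

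The derivatives were also compared with each other. Of the 40 members 18 differed between AsPC1-R and BxPC3-R, 5 higher and 13 lower in AsPC1-R, beside 43.3% of all genes, 21.3% higher and 22% lower. Of the 16 members reaching the median 14 differed, beside 57% of the genes reaching it. Of the 28 members that differed between the parental lines, 15 (53.6%) differed in the same direction between the derivatives, and of all genes that did so 53.8%. They were 12 of the 14 that were lower in AsPC1 and 3 of the 14 that were higher. Over all genes, 2691 of the 4218 that were lower in AsPC1 and 2319 of the 5098 that were higher kept call and direction. PCDH1 was lower in AsPC1 than in BxPC3 and higher in AsPC1-R than in BxPC3-R. The CDH6 difference was −5.56 ± 0.15 and that of PCDH20 −3.83 ± 0.16. For DSC3 it was −3.81 ± 0.14 and for CDH3 −3.92 ± 0.11. These contrasts share arrays with those within the lines.

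Of the 24 members below the median, 1 was called in AsPC1-R and 3 in BxPC3-R, beside 5.78% and 6.09% of all genes below it. They were DSG1 in the first and CDH26, PCDH12 and PCDH9 in the second. The highest group means of these 24 ran from 3.70 for PCDH15 to 6.46 for CDH26. The type II cadherins CDH7, CDH9, CDH10, CDH12, CDH18, CDH19, CDH20 and CDH22, the cadherins CDH15, CDH16 and CDH23, the desmosomal DSC1 and DSG4, the protocadherins PCDH8, PCDH10, PCDH15, PCDH17, PCDH18 and PCDH19, and CDH4-AS2 were called in neither derivative. PCDH19 differed between the parental lines, 4.59 in AsPC1 and 6.01 in BxPC3 (log2 difference −1.42 ± 0.18). CDH24, just above the median, read between 6.38 and 6.90 on all 12 arrays and was called in neither derivative.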

How the data were processed

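The authors' deposited table holds log2 expression values per probe set for 12 arrays, made with RMA in Affymetrix Expression Console per the submitters' processing notes. RMA corrects background, quantile-normalizes and summarises probes, so the values carry no measure of depth. The sources used here give no version or genome build. Of 33297 probe sets, 19460 carry 1 gene symbol. For the 769 genes with several probe sets the one with the highest mean over the arrays was used, which left 18417 genes. Names and gene order came from the RefSeq annotation of GRCh38.p14, where all 40 members were found by gene number.

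Group means were fitted with limma 3.58.1 in R 4.3.3 (lmFit, eBayes, two-sided, 8 residual and 5.47 prior degrees of freedom) on all 12 arrays. Benjamini-Hochberg adjustment ran over all genes, and a change or difference was called at an adjusted p under 0.05. Values after ± are standard errors unless marked SD, with n = 3 arrays per group. The spread behind them was estimated per gene over all 4 groups together, so arrays outside a contrast can widen it. The pipeline was tested on simulated data. Values by array were given for members reaching the median and called in a derivative, and for CDH1, CDH2, CDH3, CDH17, DSG2 and DSC2. CDH11 and CDH26, which is below the median, were added after their values were seen. Other genes were the up to 4 largest called changes per list and derivative, with SNAI1, SNAI2, ZEB1, ZEB2, CTNNB1, JUP, DSP and CDX2 in any case (CTNND1 was not analysed here), and the markers of other cell types. Of 180 listed genes 162 were measured. The members and lists were chosen with earlier results of these data known. Alternatives were another normalization or centring, dim genes left out, array weights, a trended robust prior, the mean over probe sets, only the groups compared, the replicate number as a block, and each array left out.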

Additional observations from a re-analysis of the deposited data

Results flagged for a closer look

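For 12 members the change from the parental line differed between the lines by the test of the difference itself (AsPC1-R minus AsPC1, less BxPC3-R minus BxPC3, limma, adjusted over all genes). The difference was negative for 8, which rose more or fell less in BxPC3-R: CDH6 (−2.91), PCDH20 (−2.27), CDH2 (−1.40), DSG3 (−1.04), DSC3 (−0.88), DSG1 (−0.74), PCDH7 (−0.36) and CDH1 (−0.33). It was positive for 4, CDH5 (2.51), CDH26 (0.89), PCDH1 (0.65) and CDH3 (0.47). The adjusted p ranged from 2.2e-07 for CDH6 to 0.0465 for CDH1. DSG1 and CDH26 were below the median in every group, and the calls of CDH1, CDH3 and PCDH7 were lost without any 1 of 11, 8 and 6 single arrays.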

How the results depend on the processing

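Over 20 alternative settings, 65 calls in the 5 contrasts were followed. Of these, 50 kept the call under every setting that could be fitted, 15 lost it under at least 1, and 0 changed direction. They were the calls of CDH11, CDH17 and the members called in a derivative or for the difference between the lines. Calls of other members, such as DSC1, DSG4 and PCDH19, were not followed this way. Of those, CDH15, CDH16, CDH23, DSC1 and PCDH8 lost the parental call without the second BxPC3 array. In AsPC1-R the count of called members fell from 9 to 5 with arrays centred on their medians (CDH8, DSC3, DSG2 and PCDH7 lost). It was also 5 with only the groups compared (DSC2, DSC3, DSG2 and PCDH7 lost). Of all genes 19.1% and 14.9% were then called, against 20.3% with all choices as reported. Between the parental lines the count was 15 of the 16 members tested when dim genes were left out, as 24 members were then not tested. Of all genes tested in that fit 63.9% differed. With array weights the change differed between the lines for 18 members instead of 12, and for 35.9% of all genes instead of 25.4%. When single arrays were left out, the counts ran from 22 to 29 between the parental lines, 17 to 19 between the derivatives, 4 to 10 in AsPC1-R, 7 to 11 in BxPC3-R and 9 to 16 for the difference between the lines. The shares of all genes ran, in the same order, from 42% to 53.7%, 38.8% to 45.2%, 15.6% to 23.1%, 16.1% to 22.7% and 21.5% to 28.8%. Some of these settings used fewer arrays or genes, and the cause of the shifts was not tested.

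The same-numbered samples of different groups had correlated deviations (r over 0.1) in 3 of 18 pairs, with r from −0.24 to 0.34, so the numbers were not taken to pair samples. With the replicate block 27 members were called between the parental lines, 18 between the derivatives, 8 in AsPC1-R and 11 each in BxPC3-R and for the difference between the lines. The shares of all genes were, in the same order, 49.9%, 42.7%, 19.3%, 19.9% and 24.6%. DSG2 in AsPC1-R (adjusted p = 0.0642) and CDH1 for the difference between the lines (0.0571, limma) then lost the call. Signal over background was not measured, so the size of changes below the median is uncertain.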
